A study of Mus musculus with 9 samples.

Results

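Histone genes were chosen by name from a gene table of mouse macrophage RNA: the listed symbol had to begin with Hist1h to Hist4h, H2af, H3f3 or H1f, and names with -ps were left out. The rule found 21 of 28998 genes. The table mixes older and newer symbols, so the rule missed 59 further histone genes that appear as H2ac, H2bc, H3c, H4c, H2az, Macroh2a and similar names. These were found by gene identifier in the GENCODE M21 annotation, where the same name pattern matches 80 genes, and they serve below as the set most like the 21. Genes were classed by their M21 symbol. Under it H1f1 to H1f6 are Hist1h1 genes, so 15 of the 21 were taken as replication-dependent and 6 as variant, although the listed prefix H1f would place 6 of those 15 among the variants. The class is that of the name and was not measured here.

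The study compared 3 groups of 3 libraries of bone marrow derived macrophages (BMDMs). Wild-type cells from C57 mice were grown with GM-CSF, a growth factor for myeloid cells, for 7 days. The 3 groups are named Control, JHU083 and WGFT17. JHU083 and WGFT17 cells were exposed for 36 hours to the compound that names the group; JHU083 is a prodrug of a glutamine antagonist, and WGFT17 is known here by its code only. Doses, and what the Control cells received, are not given in the sources used here. The labels do not say that replicates came from separate animals or cultures, so p-values measure the spread between these libraries, which may be technical. In bulk RNA, fewer cells of a type and less RNA per cell cannot be told apart.

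Histones package DNA into nucleosomes, and linker histones of the H1 class bind the DNA between them. Replication-dependent histone genes lie in clusters, lack introns and are transcribed mainly in S phase, when new DNA needs new nucleosomes. Their usual mRNA ends just after a short stem-loop that stem-loop binding protein (Slbp) holds, and it carries no poly(A) tail. Variant, or replacement, histones such as H3.3 and H1.0 are made through the cell cycle and in cells that no longer divide, from ordinary polyadenylated mRNAs. The libraries here were made from RNA that had been purified with oligo(dT), so they capture tailed molecules. A level of a replication-dependent gene in them is a level of what was captured, not of all its mRNA.

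The stem-loop letters are shown because they separate the genes by where their annotated transcripts end. The letters searched, on the sense strand of M21 transcripts, were GG, any 2 bases, CTT, any base, T, any base, AG, any 2 bases and CC. They occur in 136 of 21901 protein-coding genes (0.621%). Below, capitals mark these letters, each site runs 5′ to 3′ on the gene's strand, and positions are GRCm38. The sites are from H1f2 at chr13:23739505-23739534 (plus strand), Hist1h4m at chr13:21812122-21812147 (plus strand) and Hist1h4n at chr13:21831791-21831820 (minus strand).
H1f2: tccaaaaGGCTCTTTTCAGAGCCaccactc
Hist1h4m: aactaaaGGCCCTTTTCAGGGCCatc
Hist1h4n: aactaaaGGCCCTTTTCAGGGCCatccaat
The letters were found in 9 of the 15 replication-dependent genes and in 0 of the 6 variant genes. The annotated transcript ended within 100 bases of them in 5 genes, which included Hist1h4m at 3 bases and Hist1h4n at 31 bases. It ran further in 4 genes: H1f2 by 840 bases, H1f4 by 1153, H1f3 by 4884 and H1f6 by 185. A match describes the annotation and does not show where the captured RNA ended. A missing match also describes the annotated model, which may stop before a stem-loop. The model of Hist1h2an, without the letters, has 393 bases. Those of Hist1h2ao and Hist1h2ap, which hold them, have 480 and 482.

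Levels are given as FPKM, a fragment count scaled to transcript length and sequencing depth. Genes with a mean of at least 1 FPKM over the 9 libraries were tested, which were 11798 genes in all and 7 of the 21. Of the 15 replication-dependent genes 2 were tested, and of the 6 variants 5. H1f10 (mean 1.59) and Hist1h4m (1.71) lay just above the limit, and Hist1h4n (0.604) was the nearest below it. The 13 replication-dependent genes under the limit had means of 0.0122 to 0.604 FPKM, and the single untested variant, the antisense RNA H3f3aos, had 0.0711. The median of the 21 means was 0.19 FPKM, against 0.16 for the replication-dependent and 15.5 for the variant genes. The genes that passed the limit are therefore not a sample of all 21.

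Libraries held 56624220 to 69112134 estimated counts, at about 4 counts to a read pair. The 7 macrophage markers summed to 9449 to 11920 FPKM across libraries, and Lyz2 made up most of the sum. The markers did not move as 1: against Control, 1 was called higher and 1 lower in JHU083, and 2 higher and 2 lower in WGFT17. Among all tested genes edgeR called 24% and 58% in these 2 comparisons. Markers of stromal and endothelial cells (6 of 6 tested) summed to 1245 to 1325 FPKM for Control, 808 to 975 for JHU083 and 218 to 228 for WGFT17. Col1a1 and Col1a2 made up most of these sums. Against Control, 2 of the 6 were called lower and 4 not called in JHU083 (median log2 change -0.08), where 12.5% of all tested genes were called lower. In WGFT17 6 of 6 were called lower, where 30% of all tested genes were. For Control, JHU083 and WGFT17 in turn, neutrophil markers summed to 22.4 to 31.5, 5.28 to 7.36 and 1.14 to 2.19 FPKM. Dendritic cell markers summed to 31.9 to 42.7, 33.6 to 42.6 and 8.31 to 9.3 FPKM in that order. Of these 4 markers only Itgax was tested, and it made up most of the sum. Ccr7 went the other way, at 0.06 to 0.08 FPKM in Control and 0.43 to 0.96 in WGFT17. Flt3 was near 0, and Zbtb46 overlapped between the groups. Replicate 3 of JHU083 stood apart from the other replicates of its group: a list of 10 photoreceptor genes summed to 10.9 FPKM there and to 3.11 and 3.06 in replicates 1 and 2, against 9.77 to 11.4 in Control. A list of 10 heart genes summed to 65.8 to 76.3 FPKM in Control, to 56.3, 0.25 and 85.02 in JHU083 replicates 1 to 3, and to 0.2 to 0.23 in WGFT17. In that list replicate 2 of JHU083, not replicate 3, was the one apart. A list of 10 liver genes summed to 413 to 463 FPKM for Control, to 147.2, 67.3 and 232 in JHU083 replicates 1 to 3, and to 91.98 to 214.8 for WGFT17, with 9 of 10 called lower in JHU083 and 8 of 10 in WGFT17. Several histone genes had Control-like values in JHU083 replicate 3, so results are also given without it. It was singled out by values of these same genes. Calls made without it are therefore not independent of that choice, and their adjusted p-values are too favorable as evidence. Of 5 oocyte and testis markers 3 were in the table, with sums of at most 0.83 FPKM. The part of other cell types in the histone results was not tested.

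In WGFT17, 2 of the 7 tested genes rose against Control (H1f2 and H3f3b) and 2 fell (H3f3a and H1f0), where edgeR's test called 58% of all tested genes. In JHU083, 2 fell (H1f2 and H1f0) and 0 rose, where it called 24% of all tested genes. Between the compounds, WGFT17 was higher for H1f2 and H3f3b and lower for H3f3a and H1f0, where 44.7% of all tested genes were called. The 2 comparisons with Control share the Control libraries. The plot of FPKM by library shows all 7 tested genes.

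**Figure D1:**
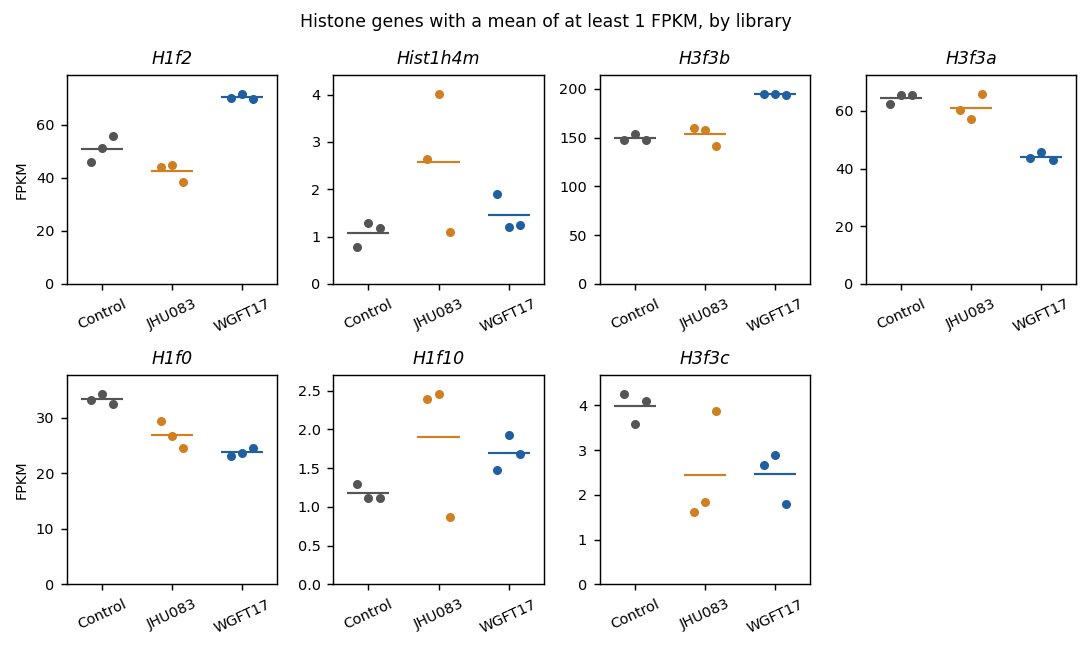
FPKM (y axis, from 0) of the 7 tested histone genes in the 9 libraries, by group (x axis). Points are libraries in replicate order and lines are group means. WGFT17 lies above both other groups for H1f2 and H3f3b and below both for H3f3a, and replicate 3 of JHU083 lies apart from replicates 1 and 2 for Hist1h4m, H1f10 and H3f3c.

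H1f2 (ENSMUSG00000036181, Hist1h1c in M21; chr13:23738808-23740367, 1 exon) encodes linker histone H1.2 and is the only replication-dependent gene of the 21 above 5 FPKM. Its levels were 46.1, 51.3 and 55.7 FPKM for Control, 43.9, 44.9 and 38.5 for JHU083, and 70.2, 71.7 and 69.7 for WGFT17. All JHU083 libraries were below all Control libraries, and all WGFT17 libraries were above both. In edgeR's quasi-likelihood test the log2 change in JHU083 was -0.36 ± 0.076 (SE; adjusted p = 0.0076, Benjamini-Hochberg), and in WGFT17 it was 0.36 ± 0.076 (adjusted p = 0.0019). WGFT17 exceeded JHU083 by 0.72 ± 0.076 on the log2 scale, a 1.65-fold difference (edgeR adjusted p = 1.4e-05). The call in JHU083 was lost when each library's trend of counts on transcript length was removed (-0.17, adjusted p = 0.127).

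The other 5 linker histone genes of the Hist1 cluster (H1f1, H1f3, H1f4, H1f5 and the testis gene H1f6) had FPKM values near 0. Their means over 9 libraries ran from 0.0122 FPKM for H1f6 to 0.16 for H1f5. FPKM divides by annotated length, so the limit of 1 FPKM asks more counts of a long transcript. H1f3, at 7425 bases, held 22 to 81 estimated counts per library. Hist1h4m, which passed the limit, held 22 to 112 at 402 bases. H1f3 had 0.12, 0.15 and 0.12 FPKM for Control, 0.05, 0.09 and 0.08 for JHU083, and 0.07, 0.05 and 0.11 for WGFT17. All Control libraries were above all treated ones, at 64 to 81 estimated counts against 22 to 60. In the fit with no minimum FPKM the change was not called in JHU083 (-0.95, edgeR adjusted p = 0.20) or WGFT17 (-0.82, adjusted p = 0.15). H1f2 alone made up 24.2% to 39.6% of the summed FPKM of all 67 replication-dependent genes of both symbol sets.

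The H1f2 letters lie well inside its annotated transcript, and 1 of the letters AATAAA or ATTAAA occurs in its last 60 bases. H1f6 also has AATAAA or ATTAAA in its last 60 bases. H1f3 and H1f4 do not, although their stem-loop letters also lie well inside the transcript. Of the 5 genes whose transcript ends within 100 bases of the stem-loop letters, 1 was tested (Hist1h4m), and the highest mean was 1.71 FPKM. Of the 4 that run further, 1 was tested (H1f2), with 54.7 FPKM. The remaining 6, without the letters, reached at most 0.21. Over both symbol sets, 2 of 22 genes that end within 100 bases were tested, 6 of 23 that run further and 2 of 22 without the letters. The plot of level against annotated distance shows those that hold the letters. Annotated length enters both the distance and FPKM, so the 2 are not independent.

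**Figure D2:**
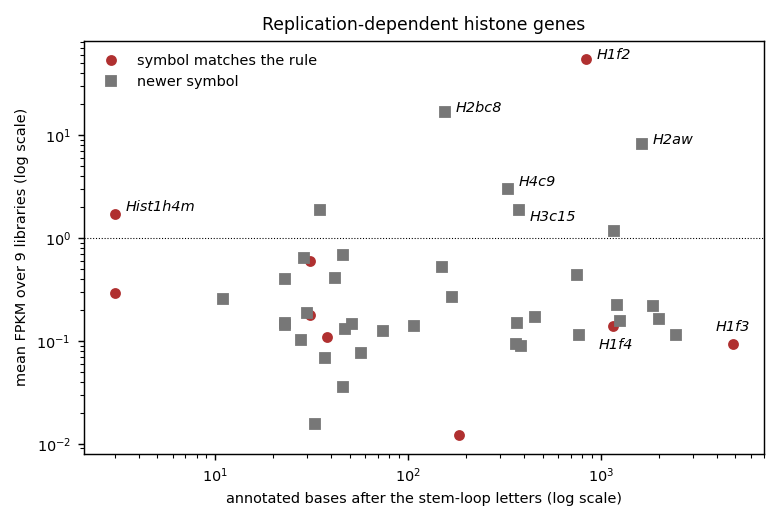
Mean FPKM over 9 libraries (y axis, log scale) against annotated bases after the stem-loop letters (x axis, log scale) for replication-dependent genes that hold the letters. Circles are genes named by the rule and squares those under newer symbols; the dotted line marks 1 FPKM. H1f2, with 840 bases after the letters, has the highest level at 54.7 FPKM, and many genes with longer distances are under the line.

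Hist1h4m (ENSMUSG00000069306, chr13:21811746-21812147, 1 exon) is an H4 core histone gene. It had 0.79, 1.28 and 1.19 FPKM for Control, 2.63, 4.02 and 1.1 for JHU083, and 1.89, 1.2 and 1.25 for WGFT17. JHU083 replicates 1 and 2 were the highest of the 9 libraries, whereas replicate 3 lay within the Control range. No comparison was called by edgeR: the log2 change was 1.15 ± 0.43 in JHU083 (adjusted p = 0.074), 0.31 ± 0.44 in WGFT17 (adjusted p = 0.56) and -0.84 ± 0.42 between WGFT17 and JHU083 (adjusted p = 0.13), with a range of -1.68 to 0.0019 at 2 SE. Without JHU083 replicate 3, it was called higher in JHU083 than in Control (1.502, adjusted p = 0.0063) and lower in WGFT17 than in JHU083 (-1.19, adjusted p = 0.010). These are 22 to 112 estimated counts per library. Its coding sequence equals that of Hist1h4n at 312 of 312 bases, so how reads were shared between H4 copies is uncertain.

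The remaining core histone genes of the Hist1 cluster encode H2A (Hist1h2an, Hist1h2ao, Hist1h2ap and the processed pseudogene Hist1h2al), H2B (Hist1h2bp, Hist1h2bq and Hist1h2br) and H4 (Hist1h4n). Hist1h4n had 0.25, 0.88 and 0.83 FPKM for Control, 0.78, 0.61 and 0.5 for JHU083, and 0.55, 0.54 and 0.5 for WGFT17, and the groups overlap. Hist1h2ap had 0.08, 0.26 and 0.2 in Control and 0.46, 0.37 and 0.38 in JHU083, with 0.16, 0.13 and 0.6 in WGFT17. The H2A gene Hist1h2ao also had its highest value in a WGFT17 library, 0.49 in replicate 3. The H2B gene Hist1h2bp had 0.11, 0.09 and 0.08 FPKM for Control, 0.3, 0.15 and 0.16 for JHU083, and 0.03, 0.01 and 0.05 for WGFT17, with no overlap between groups, from 1 to 15 estimated counts per library. The replication-dependent genes under the limit had a median of 8.44 estimated counts. With no minimum FPKM, edgeR called 0 of the 14 genes under the limit in any comparison, and the lowest adjusted p was 0.0887, for Hist1h2bp in WGFT17 against JHU083. An unadjusted p under 0.05 was found for 1 of the 14 in JHU083 against Control (H1f3), 0 in WGFT17 against Control and 2 between the compounds (H1f4 and Hist1h2bp).

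H3f3b and H3f3a are separate genes for the replacement histone H3.3. H3f3b (ENSMUSG00000016559, chr11:116021912-116027962) was the most abundant of the 21. It had 147.6, 153.5 and 147.04 FPKM for Control, 160.2, 158.2 and 141.4 for JHU083, and 195.1, 194.4 and 193.6 for WGFT17. JHU083 overlapped Control, and every WGFT17 library was above all others. The log2 change was 0.27 ± 0.052 in WGFT17 against Control (edgeR adjusted p = 0.0011), 0.33 ± 0.052 against JHU083 (adjusted p = 0.00037) and -0.06 ± 0.052 in JHU083 against Control (adjusted p = 0.45).

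H3f3a (ENSMUSG00000060743, chr1:180800832-180813632) went the other way. It had 62.3, 65.4 and 65.6 FPKM for Control, 60.1, 57.04 and 65.97 for JHU083, and 43.5, 45.9 and 43 for WGFT17. All WGFT17 libraries were below all others, and only JHU083 replicate 3 reached the Control range. The log2 change was -0.65 ± 0.061 in WGFT17 against Control (edgeR adjusted p = 4.1e-06) and -0.48 ± 0.061 against JHU083 (adjusted p = 6.1e-05). In JHU083 against Control it was -0.17 ± 0.061 (adjusted p = 0.062), and without JHU083 replicate 3 it was called lower (-0.24, adjusted p = 0.0044).

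Within a library, the ratio of H3f3b to H3f3a FPKM does not depend on the scaling between libraries. It was 2.37, 2.35 and 2.24 for Control, 2.67, 2.77 and 2.14 for JHU083, and 4.48, 4.24 and 4.50 for WGFT17. WGFT17 stood above both groups, and JHU083 straddled Control. The summed FPKM of the 6 variant genes moved less than either H3.3 gene, at 249 to 258 for Control, 237 to 254 for JHU083 and 265 to 269 for WGFT17.

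**Figure D3:**
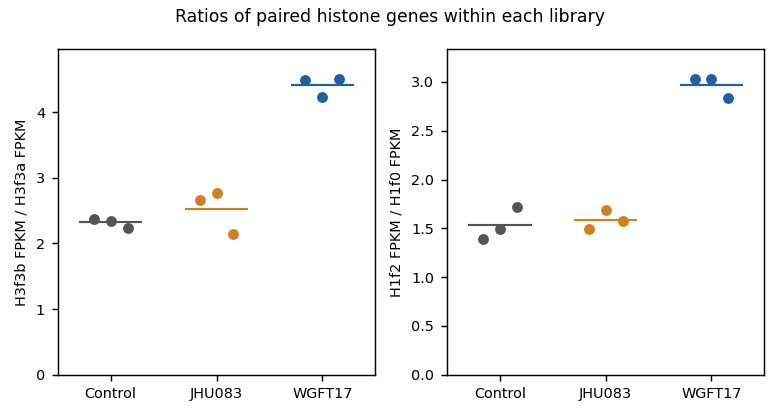
Ratio of FPKM within each library (y axis, from 0) for H3f3b over H3f3a (left) and H1f2 over H1f0 (right), by group (x axis). Points are libraries and lines are group means. WGFT17 lies at 4.24 to 4.50 and at 2.84 to 3.03, above every other library in both panels.

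The promoters of the H3.3 genes are shown because the genes moved apart. Each window runs from 250 bases before to 50 after the RefSeq start (GRCm38.p6), 5′ to 3′ on the minus strand, at chr11:116024455-116024754 for H3f3b and chr1:180813556-180813855 for H3f3a. The H3f3b window lies inside the gene span of the table, which starts further upstream. Capitals mark the searched letters on either strand.
H3f3b: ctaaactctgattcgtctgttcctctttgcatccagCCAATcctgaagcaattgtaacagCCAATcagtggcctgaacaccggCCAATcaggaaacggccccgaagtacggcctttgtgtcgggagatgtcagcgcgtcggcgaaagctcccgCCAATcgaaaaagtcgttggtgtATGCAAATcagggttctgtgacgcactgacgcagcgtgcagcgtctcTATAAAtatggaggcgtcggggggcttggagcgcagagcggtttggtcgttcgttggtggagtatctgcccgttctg
H3f3a: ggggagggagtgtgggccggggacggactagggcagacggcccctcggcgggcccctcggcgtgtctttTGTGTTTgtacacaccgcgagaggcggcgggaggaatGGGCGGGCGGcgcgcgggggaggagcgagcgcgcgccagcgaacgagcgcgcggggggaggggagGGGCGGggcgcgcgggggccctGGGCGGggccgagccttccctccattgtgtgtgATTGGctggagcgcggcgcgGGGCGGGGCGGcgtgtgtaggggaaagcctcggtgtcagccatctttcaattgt
The H3f3b window holds CCAAT 4 times, TATAAA 1 time and ATTTGCAT, read here on the other strand as ATGCAAAT, 1 time. The H3f3a window holds GGGCGG 6 times counting overlaps, CCAAT 1 time as ATTGG, and AAACACA 1 time as TGTGTTT. Of all 32851 RefSeq windows of this length, 37.4% hold CCAAT, 13.6% TATAAA, 1.74% ATTTGCAT, 35.7% GGGCGG and 7.18% AAACACA, on either strand. RefSeq windows were matched for 11 of the 21 genes. AAACACA occurred in 5 of the 6 Hist1h1 windows, which included H1f2 and left out H1f1, and the H1f0 window held GGGCGG 1 time and none of the other letters. A match is a description of the sequence and not a site of binding.

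H3f3c (ENSMUSG00000082029, chr2:119665626-119666036) is annotated as a processed pseudogene. It equals H3f3a at 407 of 411 bases and H3f3b at 314 of 411, so reads of H3f3a may have been placed on it. It had 4.26, 3.58 and 4.11 FPKM for Control, 1.61, 1.85 and 3.88 for JHU083, and 2.68, 2.9 and 1.79 for WGFT17. JHU083 replicates 1 and 2 and all WGFT17 libraries were below Control. It was not called in JHU083 (-0.79 ± 0.34, edgeR adjusted p = 0.113) or WGFT17 (-0.81 ± 0.34, adjusted p = 0.061) against Control, and the difference between the compounds was -0.02 ± 0.34 (adjusted p = 0.97), or -0.70 to 0.67 at 2 SE. Without JHU083 replicate 3 it was called lower in both, at -1.29 (adjusted p = 0.0055) and -0.81 (adjusted p = 0.010).

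H1f0 (ENSMUSG00000096210, chr15:79028450-79030504) encodes H1.0, the replacement linker histone of resting and differentiated cells. It had 33.1, 34.3 and 32.5 FPKM for Control, 29.3, 26.6 and 24.5 for JHU083, and 23.2, 23.7 and 24.6 for WGFT17. Both treated groups were below every Control library, and JHU083 replicate 3 lay within the WGFT17 range. The log2 change was -0.41 ± 0.064 in JHU083 (edgeR adjusted p = 0.0021) and -0.59 ± 0.064 in WGFT17 (adjusted p = 1.4e-05). The log2 difference of WGFT17 from JHU083 was -0.18 ± 0.064 (adjusted p = 0.035), a call that was lost in 13 of 21 alternatives. The ratio of H1f2 to H1f0 was 1.39, 1.498 and 1.72 for Control, 1.497, 1.69 and 1.57 for JHU083, and 3.03, 3.03 and 2.84 for WGFT17. The JHU083 ratios lay within the Control range, although both genes had fallen, and all WGFT17 ratios lay above it.

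H1f10 (ENSMUSG00000044927, H1fx in M21; chr6:87980421-87981637, 1 exon) encodes the variant linker histone H1.10. It had 1.3, 1.11 and 1.12 FPKM for Control, 2.39, 2.46 and 0.87 for JHU083, and 1.48, 1.93 and 1.68 for WGFT17. WGFT17 lay above Control, and JHU083 split, with replicates 1 and 2 the highest and replicate 3 the lowest of the 9. It was not called in JHU083 (0.60 ± 0.33, edgeR adjusted p = 0.21), in WGFT17 (0.42 ± 0.33, adjusted p = 0.30) or between the compounds (-0.18 ± 0.33, adjusted p = 0.69), where 2 SE spans -0.84 to 0.48. Without JHU083 replicate 3 it was called higher in JHU083 than in Control (0.94, adjusted p = 0.0057).

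In counts, JHU083 against Control had 0 genes called higher, 2 lower and 5 not called of the 7 tested, and among all tested genes edgeR called 11.5% higher and 12.5% lower. The median log2 change of the 7 was -0.17. WGFT17 against Control had 2 higher, 2 lower and 3 not called, against 28% higher and 30% lower among all tested genes, with a median of 0.27. WGFT17 against JHU083 had 2 higher, 2 lower and 3 not called, against 20.4% higher and 24.4% lower, with a median of -0.18. The median over all tested genes was near 0 in each. FPKM ranges of the groups did not overlap for 2, 6 and 3 of the 7 in that order, against 43.7%, 73.2% and 53.4% of all tested genes. These shares are near the background, and the split by class rests on 2 replication-dependent genes. Without JHU083 replicate 3 the counts became 2 higher and 4 lower in JHU083 against Control, 2 higher and 3 lower in WGFT17 against Control, and 2 higher and 3 lower between the compounds, while the genes called among all 11798 became 3731, 7598 and 5713. All calls of H1f2, H1f0 and H3f3b were kept in that fit.

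The 59 genes under newer symbols held 52 replication-dependent genes, of which 8 were tested, and 7 variants, of which 6 were tested. In WGFT17 against Control, 3 of the 8 replication-dependent genes rose (H2bc4, H2bc8 and H2aw) and H2bc21 fell, while 4 of the 6 variants fell (H2az1, H2az2, H2ax and Macroh2a2) and 0 rose. Over both symbol sets this made 4 higher and 1 lower of 10 replication-dependent genes, with a median log2 change of 0.45, and 1 higher and 6 lower of 11 variants, with a median of -0.65. The variant that rose was H3f3b. Among all tested genes 28% were called higher and 30% lower, and the difference between the classes was not tested. In JHU083 against Control, H2bc4 alone of the 14 was called, and it was higher, where 24% of all tested genes were called. Without JHU083 replicate 3, 3 of the 14 were called higher and 1 lower in that comparison, and 5 higher and 5 lower in WGFT17 against Control.

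**Figure D4:**
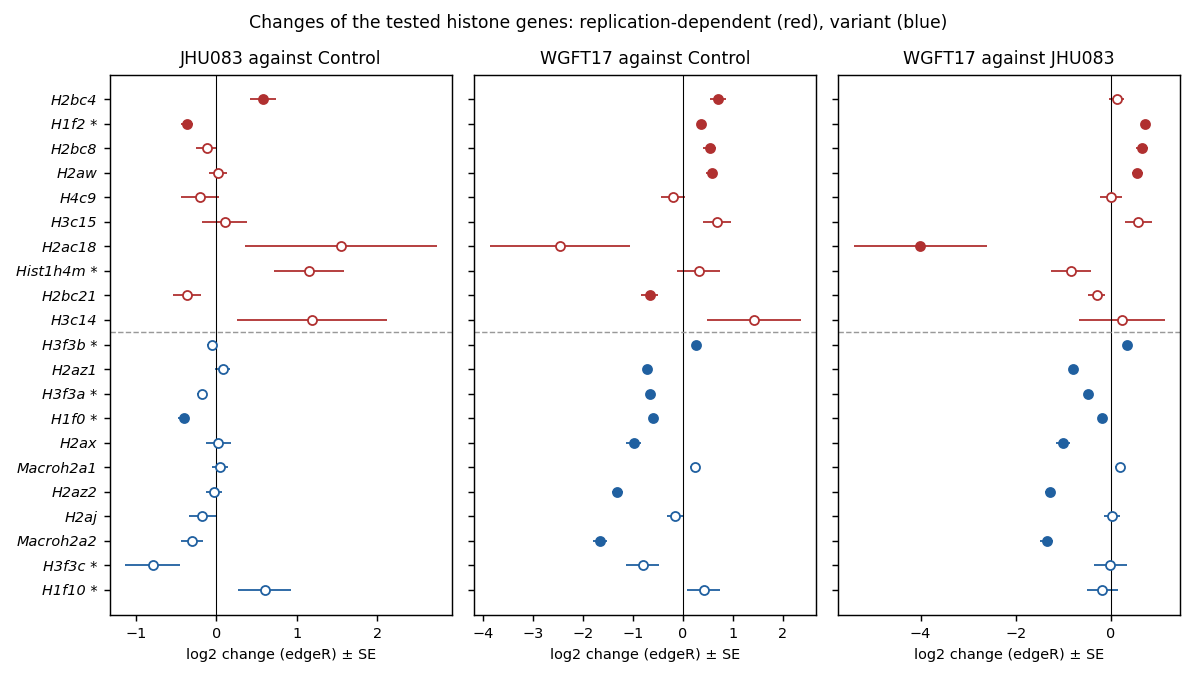
Log2 change (x axis, edgeR, bars are 1 SE) of the 21 tested histone genes of both symbol sets (y axis) in the 3 comparisons. Red marks replication-dependent and blue variant genes, filled points were called at an adjusted p under 0.05, and asterisks mark genes named by the rule. In WGFT17 against Control 6 of 11 variants are filled to the left and 4 of 10 replication-dependent genes to the right.

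H2bc4 (Hist1h2bc in M21; chr13:23684199-23692908) encodes H2B and was the most abundant replication-dependent gene of both symbol sets, with a mean of 61.4 FPKM. Its longest annotated transcript, of 1156 bases, has 2 exons and is without the stem-loop letters, which is not the usual form of the class. The class of H2bc4 is that of its name. It had 42.3, 42.6 and 42.2 FPKM for Control, 80.3, 78 and 44.95 for JHU083, and 76.8, 73.05 and 72.6 for WGFT17. JHU083 replicate 3 lay close to Control, and the other treated libraries were all above 72. The log2 change was 0.70 ± 0.16 in WGFT17 (edgeR adjusted p = 0.0036) and 0.58 ± 0.16 in JHU083 (adjusted p = 0.026), which became 0.80 (adjusted p = 4.2e-06) without JHU083 replicate 3. The JHU083 call was lost in 7 of 21 alternatives: with no minimum FPKM, with 2 groups only, and without any 1 of the Control replicates or of JHU083 replicates 1 and 2 (adjusted p from 0.0546 to 0.0877).

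H2az1 and H2az2 encode the H2A.Z variants, which mark promoters. H2az1 (chr3:137864487-137866922) had 107.2, 118.6 and 102.1 FPKM for Control, 136.98, 129.3 and 103.6 for JHU083, and 76.6, 69.7 and 69.8 for WGFT17. All WGFT17 libraries were the lowest, and its log2 change against Control was -0.71 ± 0.093 (edgeR adjusted p = 6.1e-05). Against Control H2az2 changed by -1.31 ± 0.11 in WGFT17 (adjusted p = 1.2e-06), Macroh2a2 by -1.66 ± 0.14 (adjusted p = 2.2e-06) and H2ax, the variant phosphorylated at DNA breaks, by -0.99 ± 0.16 (adjusted p = 0.00027). H2ax also holds the stem-loop letters, the only 1 of the 13 variants of both sets to do so. With all libraries, the variants H2aj and Macroh2a1 were not called in any comparison. Without JHU083 replicate 3, Macroh2a1 was called higher than in Control in JHU083 (0.17, adjusted p = 0.0225) and in WGFT17 (0.24, adjusted p = 0.00078).

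**Figure D5:**
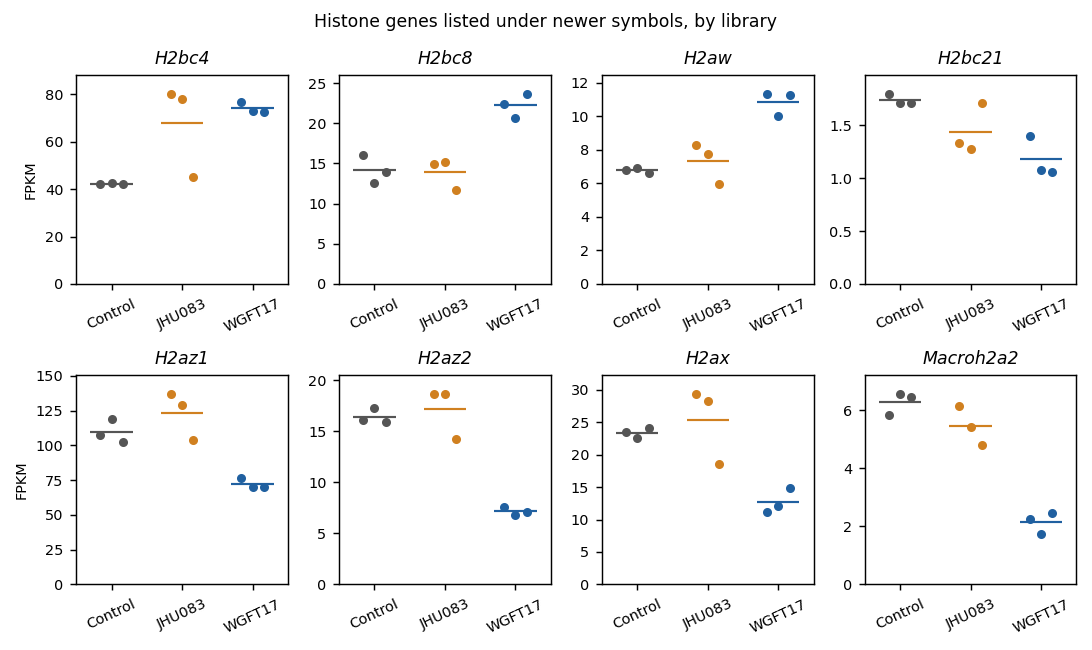
FPKM (y axis, from 0) of 8 histone genes under newer symbols in the 9 libraries, by group (x axis). Points are libraries in replicate order and lines are group means. WGFT17 lies below both other groups for H2az1, H2az2, H2ax and Macroh2a2 and above both for H2bc8 and H2aw.

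H2ac18 was called lower in WGFT17 than in JHU083 (-4.01 ± 1.40, edgeR adjusted p = 0.037) from values of 8.97, 0 and 3.21 FPKM in JHU083 and 0.41, 0.16 and 0.15 in WGFT17. The groups overlap, the call was lost in 8 of its alternatives, and the gene has near-identical copies. H2aw (0.55 ± 0.11, adjusted p = 0.0019) and H2bc8 (0.66 ± 0.13, adjusted p = 0.0016) were higher in WGFT17 than in JHU083. H2az1 (-0.79 ± 0.093), H2az2 (-1.28 ± 0.11), H2ax (-1.01 ± 0.16) and Macroh2a2 (-1.36 ± 0.14) were lower, all with edgeR adjusted p under 0.05.

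The genes that serve histones were followed in lists. Of 26 tested genes that process or control histone mRNA, 5 were higher and 0 lower in JHU083 (median log2 change 0.11). In WGFT17 against Control 4 were higher and 5 lower (0.04), and against JHU083 3 were higher and 11 lower (-0.05). Among all tested genes edgeR called 24%, 58% and 44.7% in the same order, so the share called was below the background in both comparisons with Control. Slbp, the protein that binds the stem-loop, had 6.04, 6.16 and 5.79 FPKM for Control, 7.85, 7.44 and 7.55 for JHU083, and 4.83, 4.76 and 5.91 for WGFT17. It rose in JHU083 by 0.25 ± 0.081 (edgeR adjusted p = 0.045) and fell in WGFT17 by 0.32 on the log2 scale (adjusted p = 0.0052), with WGFT17 replicate 3 inside the Control range. In JHU083 the called genes with the smallest adjusted p were Tut7 (0.34), Tut4 (0.41), Casp8ap2 (0.51) and Eri1 (0.25); Tut7 and Tut4 add uridines to RNA ends and Eri1 is an exonuclease that trims histone mRNA. For WGFT17 against Control they were Ccne1 (-1.47), Ccne2 (-1.36) and Cdk2 (-0.58), the cyclin E kinase that drives histone transcription, and Tut4 (0.51). Slbp, Ccne1 and Ccne2 also belong to the S phase list below.

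Of 40 tested histone chaperones and exchange factors, 9 were higher and 1 lower in JHU083 (median 0.06), and 7 were higher and 19 lower in WGFT17 against Control (-0.09). Against JHU083, WGFT17 had 4 higher and 18 lower (-0.12). The share called in JHU083 was near the 24% of all tested genes, and the shares in WGFT17 stand beside 58% against Control and 44.7% against JHU083. Among these chaperones the smallest adjusted p in WGFT17 against Control belonged to the centromeric H3 variant Cenpa (-2.62 ± 0.089), the H3-H4 chaperone Asf1b (-2.30 ± 0.09), the Cenpa chaperone Hjurp (-1.19 ± 0.079) and Rbbp7 (-0.59 ± 0.044). Atrx (0.47) and Daxx (0.27), partners that deposit H3.3, were called higher there. So were Ubn1 (0.23 ± 0.049, edgeR adjusted p = 0.0022) and Ubn2 (0.55 ± 0.088, adjusted p = 0.00028), subunits of the Hira complex that also deposits H3.3. Hira itself (0.07 ± 0.073, adjusted p = 0.43) and its partner Cabin1 (0.09 ± 0.063, adjusted p = 0.23) were not called. These 6 fall outside the 4 smallest p-values and are named for their role with H3.3, chosen after their values were seen.

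The S phase list gives the levels against which replication-dependent genes are usually read. Of 38 tested genes 37 fell in WGFT17 against Control (median -0.95), and 0 rose, where edgeR called 30% of all tested genes lower. The smallest adjusted p belonged to Rrm1 (-1.98), Rrm2 (-2.52), Tk1 (-2.29) and Lig1 (-1.31), which make deoxynucleotides or join DNA. All 18 tested genes of the mitosis list fell in WGFT17 (median -3.11), with sums of 205 to 222 FPKM for Control, 221 to 243 for JHU083 and 24.1 to 26.4 for WGFT17. In JHU083 9 S phase genes rose and 0 fell (median 0.12), against 11.5% higher and 12.5% lower among all tested genes, with Pcna at 0.31. Beside these lists, the 10 tested replication-dependent genes of both symbol sets had 4 higher, 1 lower and 5 not called in WGFT17, and 1 higher (H2bc4), 1 lower (H1f2) and 8 not called in JHU083. Among all tested genes 28% were called higher in WGFT17 against Control. Of the 4 higher there, H1f2, H2bc8 and H2aw have annotated transcripts that run 840, 155 and 1643 bases past the stem-loop letters. H2bc4 is without the letters. Hist1h4m and H2ac18, which end within 100 bases of the letters, were not called there. Neither were H4c9, H3c15 and H3c14, which run further, and H2bc21, without the letters, was lower.

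A list of 30 other RNAs that lack a poly(A) tail had 23 genes in the table and 0 above the limit of 1 FPKM. Their summed FPKM was 2.99 to 4.22 for Control, 3.89 to 7.86 for JHU083 and 6.29 to 7.31 for WGFT17. WGFT17 lay above Control without overlap, in a comparison where the FPKM ranges of 73.2% of all tested genes did not overlap. These are low values that did not all move 1 way. Rn7s2 had 0.07 to 0.13 FPKM in Control and 0.66 to 1.19 in WGFT17, and Rnu73b had 0.09 to 0.43 and 1.17 to 1.73. Rpph1 fell, from 0.34 to 0.79 in Control to 0 to 0.13 in WGFT17. The part of untailed RNA in the replication-dependent values was not tested. The summed FPKM of the 15 replication-dependent genes named by the rule was 48.5 to 59.04 for Control, 42.1 to 51.1 for JHU083 and 73.5 to 74.2 for WGFT17. H1f2 alone made up most of these sums, with 46.08 of 48.45 FPKM in Control replicate 1 and 70.18 of 73.49 in WGFT17 replicate 1. They are therefore not a level of the class as a whole.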

How the data were processed

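Poly(A) RNA of 9 libraries (3 groups of 3) was read from both ends, 150 bases each, in strand-marked libraries, per the labels. Tools listed without roles in the submitters' processing notes are StringTie 2.1.6, HISAT2 2.2.1, cutadapt 1.9, edgeR and DESeq2, and the build listed is mm9. The authors deposited 1 table with an estimated count and an FPKM value per gene and library, per the file headers. FPKM was scaled to length and depth by the authors, and the estimated count as deposited is a whole number that was not scaled. The strand setting of the counting is not given in the sources used here. Gene coordinates equal GRCm38 (GENCODE M21) for 26125 of 28926 matched genes and for 20 of the 21 histone genes named by the rule, so GRCm38 positions are given.

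Estimated counts were tested with edgeR 4.0.16 (quasi-likelihood, TMM factors, all 9 libraries in 1 fit, R 4.3.3) for genes with a mean of at least 1 FPKM, with Benjamini-Hochberg adjustment over 11798 genes and calls at an adjusted p under 0.05. The fit was also run on simulated data that gave all genes the same dispersion (spread between libraries). That run therefore does not vouch for calls of genes with few counts or an outlying library. Log2 changes and SEs come from this fit, and levels are deposited FPKM, whose scaling differs: with limma on log2(FPKM + 0.1), the median gene was 0.11 higher in WGFT17 than in Control. Alternatives were other scalings, filters, tools, a replicate block, removal of the length trend and each library left out. Members, classes, gene lists, searched letters and the second symbol set were chosen with earlier results of these data known. Named with values in every library were members called in at least 1 comparison with at least 5 FPKM in the highest group, variants with a mean of at least 1 FPKM and those nearest the limit; Slbp and some newer-symbol genes were added. From other lists the 4 genes with the smallest adjusted p in a comparison were named.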

Additional observations from a re-analysis of the deposited data

How the results depend on the processing

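Of the log2 changes followed gene by gene under alternatives, 512 values of called genes kept direction and call, 30 kept the direction only (13 of them H1f0 between WGFT17 and JHU083) and 0 reversed. Calls among replication-dependent genes named by the rule in JHU083 against Control became 1 higher and 0 lower with the length trend removed. Over both symbol sets these became 2 higher and 0 lower, and they became 0 higher with 2 groups only, or 0 higher and 2 lower with no minimum FPKM. Variants called lower there became 2 with DESeq2 in either set. For WGFT17 against Control, over both sets, replication-dependent genes called lower became 2 with no minimum FPKM or 2 groups only and 0 with a mean FPKM of at least 5 or the length trend removed. Variants called higher became 2, the added gene being Macroh2a1, with library totals alone, DESeq2, limma on log2(FPKM + 1) or log2(FPKM + 0.1), 2 groups only, the replicate block or the length trend removed. In WGFT17 against JHU083, replication-dependent genes of both sets called lower became 0 with a mean FPKM of at least 5 or either limma fit. Variants named by the rule called lower there became 1 with no minimum FPKM, either limma fit, 2 groups only, the replicate block or the length trend removed, and variants of both sets called higher became 2 with the length trend removed, which moved the median gene by 0.16 in WGFT17 against Control.

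With each library left out in turn, replication-dependent calls in JHU083 against Control ran from 0 to 1 higher (rule), 0 to 2 higher and 1 to 2 lower (both sets), and variant calls from 0 to 1 higher and 1 to 3 lower (rule) and 0 to 3 higher and 1 to 3 lower (both sets). The highest of these counts came without JHU083 replicate 3, and the 0 higher replication-dependent genes of both sets came without Control replicate 1, 2 or 3 or JHU083 replicate 2. For WGFT17 against Control, replication-dependent calls of both sets ran from 4 to 5 higher and 1 to 2 lower, and variants from 1 to 2 higher (both sets) and 2 to 3 lower (rule). Between the compounds replication-dependent calls ran from 0 to 1 lower (rule) and 0 to 2 lower (both sets), and variants from 1 to 2 lower (rule). Values of genes not called that changed sign were H3f3b in JHU083 against Control (0.035 with either limma fit, 0.00755 with the length trend removed), H3f3c between the compounds (0.00606 with no minimum FPKM, 0.047 and 0.083 with limma at pseudocounts 1 and 0.1, 0.042 with the replicate block, 0.12 with the length trend removed, and -0.24 to 0.49 with libraries left out) and H1f10 between the compounds (-0.52 to 0.046 with libraries left out). The cause was not tested. Same-numbered libraries of different groups had correlations of -0.034 to 0.16 in their deviations from group means. Differently numbered libraries had -0.146 to 0.133. With 3 libraries a group, these values cannot settle whether the numbers pair libraries. The replicate block left 2330, 6530 and 4907 genes called in JHU083 against Control, WGFT17 against Control and WGFT17 against JHU083. The 14 of 21 genes under 1 FPKM entered only the fit with no minimum, where 0 were called.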
